A study of Mus musculus with 2 samples.

Results

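Classical monocytes are the Ly6C-high monocytes of mouse blood, which leave the bone marrow through the receptor Ccr2 and enter inflamed tissue. They carry the surface glycoprotein Ly6C, coded in part by Ly6c2, and mature in blood into nonclassical patrolling monocytes, which depend on Nr4a1 and Cx3cr1. After ischemic stroke they are among the leukocytes drawn into the injured brain. Here they were selected from single-cell RNA libraries of sorted blood cells as cells that the authors labelled Monocyte and that met 4 conditions. Each held at least 3 UMIs (unique molecular identifiers, counted as transcripts) of Ly6c2, none of the nonclassical genes Ace, Cd300e and Adgre4, fewer than 3 summed over C1qa, C1qb and C1qc, and fewer than 3 summed over cell cycle genes. These were Birc5, Ccnb2, Cdc20, Cdca3, Cdca8, Cenpa, Ube2c, Ccna2, Mki67 and Top2a. In all, 629 of 1545 monocytes met the rule, among 5793 cells of any type and 11691 genes.

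All mice were C57BL/6 and had a proximal middle cerebral artery occluded for a time and then reopened, and blood was taken 24 h after it. The young library came from mice of 2 to 4 months and the aged library from mice of 18 to 24 months, with 1 library each. Cells of mice without stroke were not analysed here. Sorting took both CD11b+ Ly6G- and CD11b+ Ly6G+ cells, so the aim visible in the labels is a comparison of circulating myeloid cells between ages after stroke. Whether animals were pooled is not given in the sources used here. With 1 library a group there is no replicate and no test: each ratio compares 2 libraries, not 2 ages. Intervals are at 95% and cover counting error only.

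The young library held 250 such cells and the aged library 379. They made up 45.3% of 552 young monocytes (exact Clopper-Pearson interval 41.1% to 49.5%) and 38.2% of 993 aged monocytes (35.1% to 41.3%). As shares of all cells these were 13.5% and 9.61%. Too few Ly6c2 UMIs alone left out 123 young and 182 aged monocytes. A nonclassical gene alone left out 51 and 34, C1q alone 11 and 84, cell cycle genes alone 16 and 117, and more than 1 condition 101 and 197. Members held 1818427 UMIs in the young library and 2616611 in the aged, with medians of 7292.5 and 6647 UMIs and 2015.5 and 1925 genes per cell. Of 12 cell barcodes that both libraries hold, 0 belonged to members.

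The Ly6c2 condition leans on depth. The median was 8 Ly6c2 UMIs in both libraries, with quartiles of 5 and 13 in both. Monocytes left out by Ly6c2 alone were shallower, at a median of 3655 UMIs for young and 4859.5 for aged cells. Just outside the limit, 31 young and 51 aged monocytes that met the other conditions had 2 Ly6c2 UMIs, and just inside it 26 and 48 had 3. Fn1 stood at 807 and 410 CPM (UMIs of a gene scaled to a common total of summed UMIs) in the young and aged cells with 2, and at 1129 and 480 CPM in those with 3. When each cell was thinned to 1500 UMIs before the rule was applied, the shares were 19.9% of 549 young and 20.2% of 990 aged monocytes. The intervals of those shares, 16.6% to 23.4% and 17.7% to 22.8%, overlapped. Thinning also lowers the nonclassical, C1q and cell cycle UMIs, so cells that those conditions left out can come in. These shares therefore do not isolate the Ly6c2 condition.

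Of the 5 markers given for classical monocytes, Ly6c2, F13a1 and Vcan stood higher in members than in nonclassical monocytes in both libraries, here meaning the 140 young and 152 aged monocytes with a UMI of Ace, Cd300e or Adgre4. No test was made, because Ly6c2 and the nonclassical genes chose the cells, which fixes the direction for Ly6c2. How the authors assigned their labels is not given in the sources used here. Ly6c2 was at 1399 CPM in young and 1506 CPM in aged members, 3.65 times (3.29 to 4.06) and 3.31 times (3.03 to 3.64) the nonclassical level. F13a1, a subunit of coagulation factor XIII, was at 864 and 693 CPM, 2.11 and 1.93 times that level. Vcan, a matrix proteoglycan, was at 234 and 195 CPM, 1.85 and 2.09 times. Fn1, which codes for fibronectin, was 1.93 times higher than in nonclassical cells in the young library and 1.19 times (1.08 to 1.31) in the aged one. Ccr2, the receptor for Ccl2, did not set members apart from these cells: its level was 1.11 times theirs in the young library and 0.842 times in the aged. Of the nonclassical set, 51 young and 34 aged cells met all other conditions, with at least 3 Ly6c2 UMIs. The set thus also holds cells with Ly6c2 at the level of members, and the ratios are not to purely nonclassical monocytes. Of the 4 markers outside the rule, F13a1, Vcan and Fn1 were above the nonclassical level in both libraries, with Fn1 nearest to it in the aged one.

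**Figure D1:**
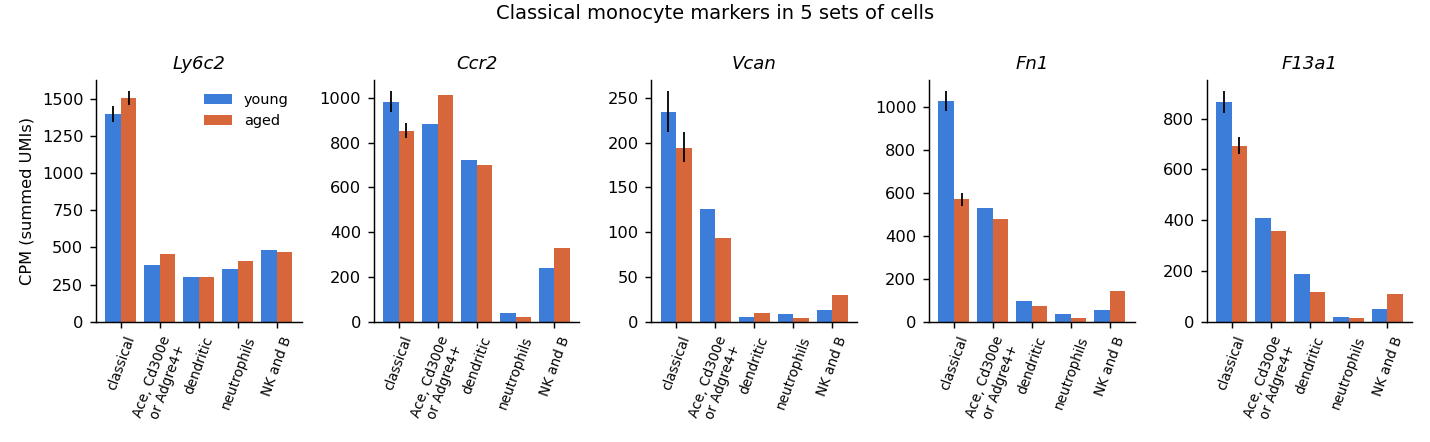
Level of the 5 markers (CPM of summed UMIs, linear axes from 0) in classical monocytes, monocytes with Ace, Cd300e or Adgre4, dendritic cells, neutrophils, and NK and B cells, with young in blue and aged in orange. Black bars on the classical monocytes are 95% Poisson intervals. Ly6c2, Vcan and F13a1 are highest in the classical monocytes of both libraries, whereas Ccr2 is as high in the monocytes with nonclassical genes.

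Several other named transcripts, chosen for printing after values were seen, stood above the nonclassical level in both libraries. Lcn2, an iron-siderophore binding protein, was at 1945 CPM in young and 2775 CPM in aged members, 2.50 and 2.93 times the nonclassical level. Mmp8, the neutrophil collagenase, was at 547 and 488 CPM, 2.14 and 2.04 times. Saa3, an acute phase apolipoprotein, was at 4212 and 6801 CPM, 1.61 and 2.20 times. S100a8, an alarmin subunit, stood at 2.30 and 2.51 times, and Mmp19, another metalloproteinase, at 3.19 and 2.75 times. Of cells of other types, neutrophils held more Lcn2 (6243 and 7930 CPM) and Mmp8 (1186 and 1592 CPM) than members. They held less Saa3 (215 and 209 CPM). The list of S100 and calcium-binding genes, which holds S100a8, summed to 304892 CPM in young and 378247 CPM in aged neutrophils. In members that list summed to 46543 and 67587 CPM.

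Promoters from RefSeq (assembly GRCm38.p6) were searched for 3 motifs on both strands, from 250 bases before to 50 bases after each start. They were TTGCNNAA, the core of C/EBP sites, GAGGAAG, a PU.1 site core, and the NF-kappaB site. Among 32851 promoters these stood in 10.8%, 13.6% and 4.51%. Of the 12 genes highest over nonclassical cells, 9 matched, and TTGCNNAA was found for 5 (Dmkn, Hmgn2, Lcn2, Mmp8, Spp1), GAGGAAG for 6 and NF-kappaB for 1. Of the 12 genes with the highest ratio of aged over young, 11 matched, with 3, 3 and 1. Of the 12 with the lowest, 10 matched, with 0, 2 and 0. Of the 12 most abundant, 11 matched, with 2, 1 and 2, and of the 5 markers, 4 matched, with 0, 2 and 0. Genes can have several starts (14 for the 9 genes highest over nonclassical cells), so a count by gene has more chances of a match than a share by promoter. These counts are small and describe letters, not bound sites.

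The upstream 250 bases of Lcn2, Mmp8 and Saa3 are printed. These transcripts stood above the nonclassical level in both libraries, and Saa3 is from the most abundant genes, not the 12 highest over nonclassical cells. Of those 12, only 9 matched a promoter and 5 held TTGCNNAA. F13a1, Ly6c2 and S100a8 were among the matched genes without it, which are not printed. All printed promoters hold TTGCNNAA, so they do not show how common it is. The promoters were chosen after values were seen. Each runs 5′ to 3′ on the gene's strand, and capitals mark TTGCNNAA on either strand.
Lcn2, chr2:32387740-32387989, minus strand: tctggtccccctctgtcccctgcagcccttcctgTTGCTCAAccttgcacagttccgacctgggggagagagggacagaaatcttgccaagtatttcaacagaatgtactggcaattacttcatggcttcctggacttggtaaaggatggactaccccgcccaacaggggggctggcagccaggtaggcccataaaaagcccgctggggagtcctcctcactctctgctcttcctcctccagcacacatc
Mmp8, chr9:7558179-7558428, plus strand: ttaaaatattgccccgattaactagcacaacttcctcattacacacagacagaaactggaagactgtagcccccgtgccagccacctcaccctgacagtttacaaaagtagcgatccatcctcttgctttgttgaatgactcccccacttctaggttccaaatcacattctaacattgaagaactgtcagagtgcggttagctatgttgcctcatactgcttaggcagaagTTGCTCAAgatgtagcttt
Saa3, chr7:46715677-46715926, minus strand: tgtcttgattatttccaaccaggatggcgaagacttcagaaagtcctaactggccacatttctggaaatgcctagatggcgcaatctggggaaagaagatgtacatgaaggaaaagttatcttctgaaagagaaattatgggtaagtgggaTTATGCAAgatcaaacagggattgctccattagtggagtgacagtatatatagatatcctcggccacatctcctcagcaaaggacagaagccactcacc
The marked run begins 216 bases before the start in Lcn2, 19 in Mmp8 and 99 in Saa3.

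Between the libraries, aged classical monocytes held more Il1r2, Ifitm1, C5ar1 and Ctsl on the CPM scale, and less Fn1, Lyz2, Cybb and Wdr89. Genes with at least 50 UMIs over both libraries numbered 5712, and the median log2 ratio of aged over young was 0.03. Of these, 55 (0.963%) stood 2-fold or more above the young level and 97 (1.70%) 2-fold or more below it. At 1.5-fold, the bound used for gene lists, 370 (6.48%) were higher and 409 (7.16%) lower. The counts in each list below are to be read against these shares. With ribosomal protein, mitochondrial, pseudogene and unnamed genes left out of the total, 225 were higher and 586 lower at 1.5-fold, so the balance of the 2 directions depends on that choice. A sum cannot tell fewer cells with a transcript from less of it per cell, and medians per cell are given for that reason.

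**Figure D2:**
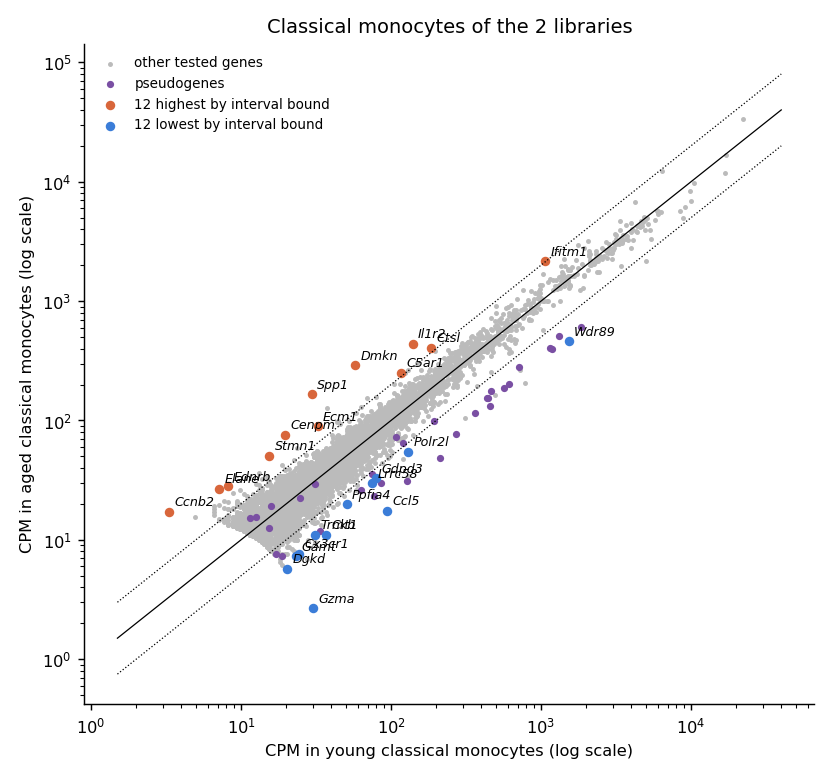
CPM of each tested gene in young (x) and aged (y) classical monocytes, both axes on log scales. The solid line marks equal levels and the dotted lines 2-fold. Il1r2, Ctsl, C5ar1, Spp1 and Dmkn lie at or above the upper dotted line, and the pseudogenes (purple) and Wdr89 below the lower one for the most part.

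Among receptors, Il1r2 codes for a decoy that captures interleukin-1 and sends no signal (GRCm38, chromosome 1, 40074079 to 40125231, GENCODE M21). Il1r2 was at 139 CPM (123 to 157) in young members and 440 CPM (414 to 466) in aged ones, a ratio of 3.16 (2.75 to 3.63). The median cell held 0 Il1r2 UMIs in the young library and 2 in the aged. At 1500 UMIs per cell, 13.6% of young and 41.4% of aged members had an Il1r2 UMI (46.4% and 81.8% unthinned), against 2.53% of 79 young and 13.9% of 101 aged NK and B cells deep enough, a guide to free RNA, whose unthinned median depths were 2079 and 2847 UMIs. The ratio for Il1r2 was 3.58 in the other monocytes, 2.12 in neutrophils, 2.55 in dendritic cells and 4.57 (1.97 to 13) in NK and B cells, from 6 and 53 UMIs. The member ratio was 1.49 times the neutrophil one (1.28 to 1.73).

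C5ar1, the receptor for the complement fragment C5a (chromosome 7, 16246743 to 16259540), stood at 116 CPM in young and 252 CPM in aged members, a ratio of 2.17 (1.86 to 2.55). The median young cell held 0 C5ar1 UMIs and the median aged cell 2. In neutrophils the C5ar1 ratio was 1.33. At 1500 UMIs, 16.4% and 29.6% of members had a C5ar1 UMI, against 1.27% and 9.90% of NK and B cells. Ltb4r1, the leukotriene B4 receptor, was at 149 and 301 CPM, with a ratio of 2.02 (1.76 to 2.33), and its neutrophil ratio was 2.04. Of 12 tested genes for chemokine and attractant receptors (of 16 listed), 4 were at least 1.5-fold higher (C5ar1, Ltb4r1, Cxcr2, Fpr1) and 3 lower (Cx3cr1, Ccrl2, Ptafr). Over all tested genes, 6.48% were higher and 7.16% lower at that bound. Fpr1, a formyl peptide receptor, stood at 1.58 (1.06 to 2.39) and Cxcr2, the receptor for neutrophil chemokines, at 1.75 (1.28 to 2.41). Without cells that held a UMI of Spp1 or Dmkn, Cxcr2 was at 1.03. Cx3cr1, the fractalkine receptor that increases as monocytes turn nonclassical, was at 24.2 CPM (44 UMIs) in young and 7.64 CPM (20 UMIs) in aged members, a ratio of 0.316 (0.176 to 0.547). Ccr2 was at 983 and 854 CPM, with a ratio of 0.868 (0.816 to 0.925).

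Fc receptors differed in part. Fcgr4, an activating receptor for IgG, was at 79.2 CPM in young and 158 CPM in aged members, a ratio of 2.00 (1.65 to 2.43), while in neutrophils it was at 0.913. Fcgr2b, the inhibitory receptor, was at 115 and 201 CPM, with a ratio of 1.75 (1.49 to 2.07). Over all monocytes Fcgr2b was at 1.33. Fcgrt, the neonatal Fc receptor, was lower, at 0.513 (0.312 to 0.836), from 42 and 31 UMIs, and at 0.77 without the cells with 3 or more UMIs of Spp1 and Dmkn described below. These were the 3 of 12 tested Fc and scavenger receptor genes past 1.5-fold, against 6.48% higher and 7.16% lower over all tested genes.

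Ifitm1, an interferon-inducible membrane protein that restricts virus entry (chromosome 7, 140967221 to 140969825), was among the abundant transcripts past 2-fold. Ifitm1 stood at 1066 CPM (1019 to 1115) in young members and 2165 CPM (2109 to 2222) in aged ones, a ratio of 2.03 (1.93 to 2.14), and at medians of 5 and 11 UMIs per cell. The Ifitm1 ratio was 1.06 in neutrophils, 2.22 in other monocytes and 2.03 in NK and B cells. Ifitm2 was at 1.56 (1.5 to 1.62), Ifitm6 at 1.63 (1.53 to 1.74) and Ifitm3 at 1.18 (1.14 to 1.22). Members of this family are alike in sequence, and reads could be divided between them. In the list of Ifitm and Ly6 families, 4 of 7 tested genes were at least 1.5-fold higher (Ifitm1, Ifitm2, Ifitm6, Ly6g) and 0 lower. The median log2 ratio of that list was 0.64. Over all tested genes, 6.48% were higher and 7.16% lower. The wider interferon list lay near all genes: of 28 tested interferon-stimulated genes (of 58 listed), 0 were at least 1.5-fold higher, with a median log2 ratio of 0.05.

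**Figure D3:**
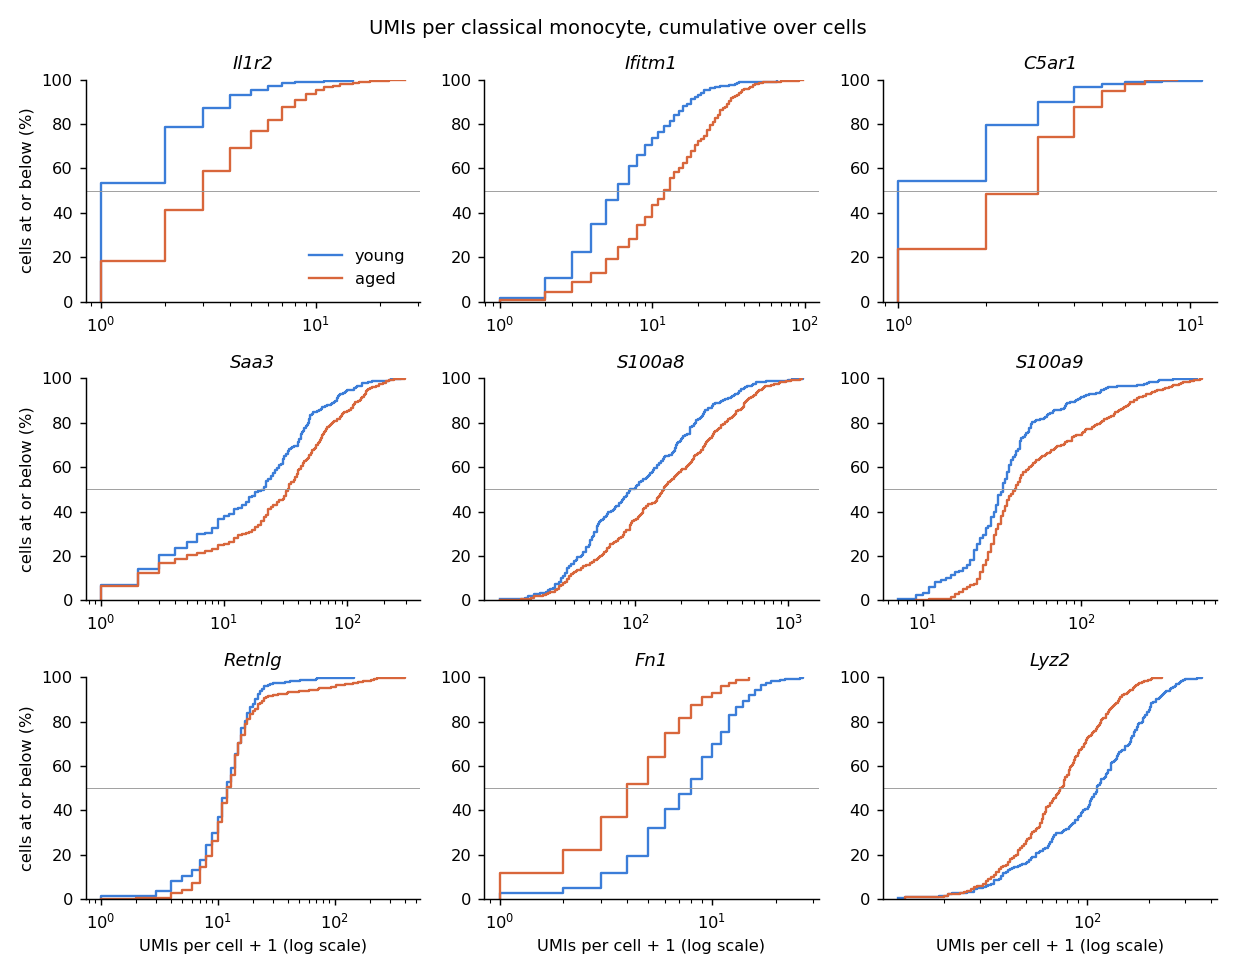
Share of classical monocytes (y, percent) at or below each number of UMIs per cell plus 1 (x, log scale) for 9 genes, with young in blue and aged in orange. The grey line at 50% marks the median. The curves for Il1r2, Ifitm1 and C5ar1 lie further right in the aged library at the quartiles and the median, those for Fn1 and Lyz2 further left, and those for Retnlg meet at the median and part at the upper end.

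Several abundant transcripts, among them Fn1 and Lyz2 of the classical identity list, were lower in the aged library. Fn1 (chromosome 1, 71585520 to 71653200) was at 1027 CPM (981 to 1074) in young and 570 CPM (541 to 599) in aged members, a ratio of 0.555 (0.518 to 0.594). The median young cell held 7 Fn1 UMIs and the median aged cell 3. At 1500 UMIs, 73.2% and 52.8% of members had a Fn1 UMI, against 7.59% and 10.9% of NK and B cells. In the other monocytes the Fn1 ratio was 0.885. Lyz2, lysozyme, was at 16762 and 11732 CPM, with a ratio of 0.700 (0.689 to 0.711), with medians of 110.5 and 73 UMIs per cell. In NK and B cells both went the other way, with ratios of 2.67 for Fn1 and 1.80 for Lyz2. Cybb, the membrane subunit of the phagocyte NADPH oxidase, was at 463 and 255 CPM, with a ratio of 0.550 (0.496 to 0.609), and the median cell held 3 and 1 UMIs. Beta-actin (Actb) was at 0.692 and thymosin beta-10 (Tmsb10) at 0.672. Of the 23 tested genes of the classical identity list (of 25), 1 was at least 1.5-fold lower (Fn1) and 1 higher. The higher one was Thbs1, thrombospondin-1, at 69.3 and 154 CPM, with a ratio of 2.22 (1.81 to 2.73). The median of that list was 0.07 on the log2 scale, near that of all genes. Chil3, a chitinase-like protein, was at 4677 and 4733 CPM.

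Neutrophil genes made up the list with the highest median among those with at least 6 tested genes. Of 18 tested genes (of 22), 11 were at least 1.5-fold higher in aged members, against 6.48% of all genes, and 0 lower, with a median log2 ratio of 0.67. S100a8 was at 22166 CPM in young and 33746 CPM in aged members, a ratio of 1.52 (1.5 to 1.54), with medians of 94.5 and 153 UMIs per cell. S100a9, its partner, was at 6459 and 12220 CPM, with a ratio of 1.89 (1.85 to 1.93), but its medians were nearer, at 31 and 37 UMIs. Retnlg, a resistin-like protein of neutrophils, was at 1767 and 2958 CPM, with a ratio of 1.67 (1.61 to 1.74), while the median was 11 UMIs in both libraries. The 19 aged cells with the most Retnlg held 40.7% of its UMIs, and the 13 such young cells 18.5%. So for S100a8 the middle of the cells differed, and for Retnlg the upper end.

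The same transcripts were also more frequent in aged than in young NK and B cells. On average an NK or B cell held 15.2 S100a8 UMIs (young) and 69.2 (aged), with medians of 11 and 17.5. For Retnlg the means were 4.67 and 20.8 UMIs. Members with 3 or more UMIs of Cxcr2, Ly6g and Mmp9 were 12 of 250 (4.80%) and 40 of 379 (10.6%). Without them, 5 of 17 tested neutrophil genes were at least 1.5-fold higher and 1 lower, and the ratios were 1.41 for S100a8, 1.61 for S100a9 and 1.21 for Retnlg. That setting was added after the data were seen. With the highest doublet scores removed, 6 of 17 were higher, and Ngp stood at 1.13 and Mmp9 at 1.17, against 2.33 and 1.51 with all members. What part neutrophil RNA outside cells, or droplets with 2 cells, has in these ratios was not tested.

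Ranked by the interval bound nearest to 1, Spp1 and Dmkn came first, and the rule let in cells that held them. Spp1 codes for the secreted phosphoprotein osteopontin and Dmkn for the secreted protein dermokine. Spp1 (chromosome 5, 104435118 to 104441050) was at 29.7 CPM (54 UMIs) in young and 165 CPM (433 UMIs) in aged members, a ratio of 5.57 (4.19 to 7.54). Dmkn (chromosome 7, 30763756 to 30781063) was at 57.7 and 290 CPM, with a ratio of 5.02 (4.09 to 6.22). Cells with 3 or more UMIs summed over both genes were 14 of 250 young members (5.60%, 3.10% to 9.22%) and 156 of 379 aged members (41.2%, 36.2% to 46.3%). Without them, members were 42.8% of young and 22.5% of aged monocytes. Members with at least 1 UMI of either gene were 30.8% of the young and 68.1% of the aged ones. The median Dmkn count was 0 UMIs in young and 1 in aged members, so these transcripts were not confined to cells past the limit of 3.

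In the aged library, those 156 cells were compared with the other 223 members, a look taken after the data were seen, and with the first 2 genes high by choice. They were deeper, at a median of 7421.5 against 6072 UMIs. Of 4324 tested genes, 9 were at least 2-fold higher in them and 25 at least 2-fold lower. Stmn1, which binds tubulin in growing cells, was 2.86 times higher (1.95 to 4.27), Lcn2 1.47 times (1.40 to 1.54) and Ly6c2 1.33 times (1.25 to 1.42). The chaperone Calr was 1.34 times higher and Prtn3, the azurophil granule protease proteinase 3, 1.33 times. Apoe, which carries lipids, was at 0.598 times (0.563 to 0.635) and Cd74, the MHC class II invariant chain, at 0.461 times.

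With these cells left out in both libraries, the ratio of aged over young was 2.23 for Spp1 and 2.21 for Dmkn, which the filter lowers by construction. It was 1.93 for Stmn1, 3.07 (2.63 to 3.60) for Il1r2, 2.16 (2.04 to 2.28) for Ifitm1, 2.17 (1.81 to 2.60) for C5ar1 and 0.546 (0.501 to 0.594) for Fn1. Of genes of dividing and progenitor cells, Cenpm, a centromere protein, was at 3.84 (2.68 to 5.64) in all members. Elane, neutrophil elastase, was at 3.74 (2.05 to 7.37) from 13 and 70 UMIs. In the progenitor and neutrophil-like monocyte list, 3 of 12 tested genes were at least 1.5-fold higher (Saa3, Elane, Ngp) and 0 lower. The median log2 ratio of that list was 0.24. In the cell cycle list, 2 of 6 were higher (Stmn1, Ccnb2) and 0 lower. Over all tested genes, 6.48% were higher and 7.16% lower. Members with a UMI of Elane, Mpo or Prtn3 were 70.4% of the young and 75.5% of the aged ones. Ccnb2, at 5.21 from 6 and 45 UMIs, is a gene of the rule and is given as a description. Members with 1 or 2 UMIs of the cell cycle genes were 15.6% of the young and 30.3% of the aged ones.

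**Figure D4:**
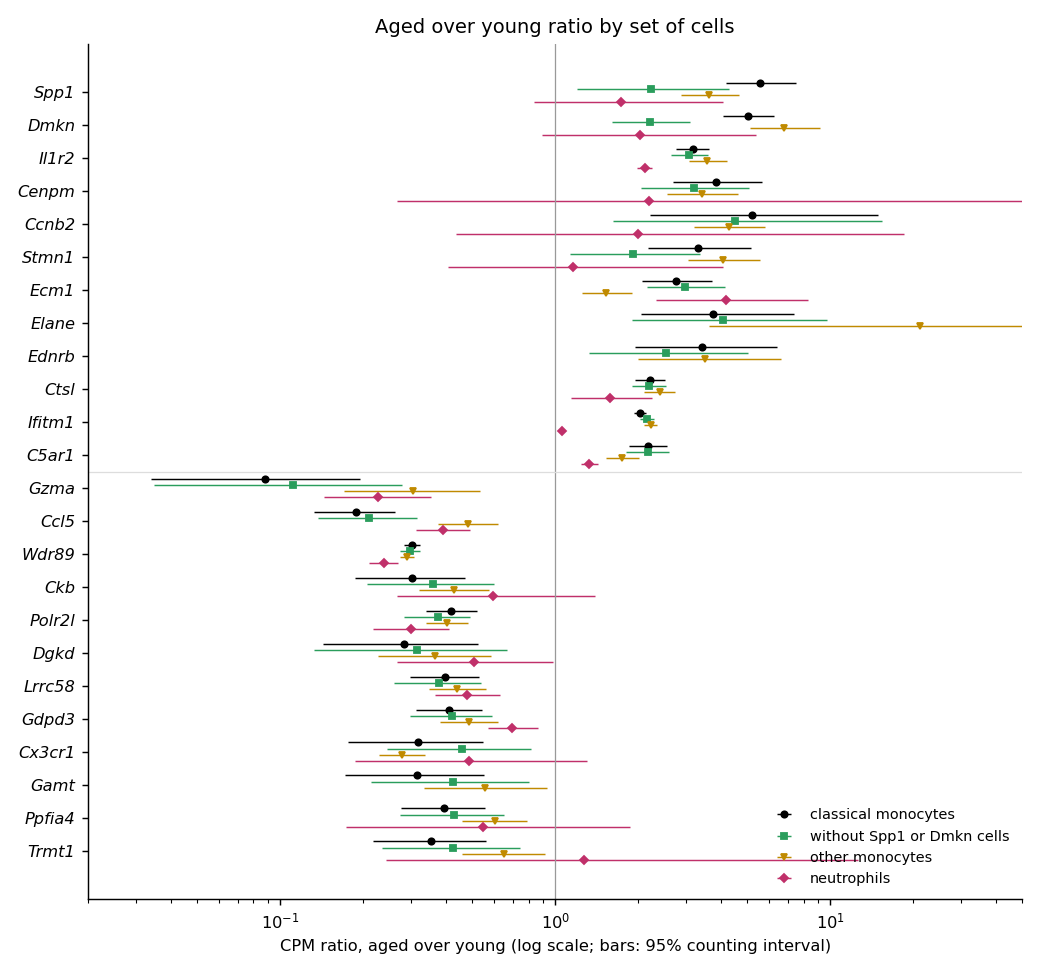
Ratio of aged over young CPM (log scale) with 95% counting intervals for 12 genes from the top and 12 from the bottom of the ranking, in classical monocytes (black), in the same cells without those with 3 or more UMIs of Spp1 and Dmkn (green), in other monocytes (yellow) and in neutrophils (pink). Sets with 0 UMIs in a library are not drawn and the widest intervals run off the axis. Il1r2, Ifitm1 and C5ar1 have nearly the same ratio in the green set as in all members, and Spp1 and Dmkn are lower there because they chose the cells left out.

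At the lower end of the ranking stood Gzma, Ccl5 and Wdr89. Gzma, the granzyme of cytotoxic lymphocytes, had 55 UMIs in young and 7 in aged members, a ratio of 0.088, and Ccl5, a chemokine of the same cells, 170 and 46, a ratio of 0.188. A single young cell held 41.8% of the Gzma and 33.5% of the Ccl5 UMIs. Of the 12 markers of NK cells, Ncr1 and Prf1 were at 0 in young members and 6 at 0 in aged ones, and the list summed to 150 and 27.5 CPM, against 31562 and 18820 CPM in the NK and B cells themselves. Wdr89, a gene of little known function, was at 1530 and 461 CPM, with a ratio of 0.301 (0.281 to 0.322). Its ratio was 0.238 in neutrophils, 0.289 in other monocytes and 0.293 in NK and B cells. Of 31 tested pseudogenes, many named as copies of ribosomal protein genes, 22 were at least 2-fold lower and 0 higher, with a median log2 ratio of -1.39, and of -1.83 in neutrophils. Reads of such copies cannot be told apart with certainty from their parent genes. Polr2l, a small RNA polymerase subunit, was at 0.419 and Gdpd3, a phosphodiesterase, at 0.412.

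Among enzymes, Ctsl, the lysosomal protease cathepsin L, was at 184 CPM in young and 406 CPM in aged members, a ratio of 2.20 (1.95 to 2.50), with medians of 1 and 2 UMIs. At 1500 UMIs, 20.4% and 47.8% of members had a Ctsl UMI, against 2.53% and 4.95% of NK and B cells. Of 35 tested genes for lysosomes and cathepsins, 4 were at least 1.5-fold higher (Ctsl, Cd63, Cstb, Lgmn) and 1 lower (Lyz1). The shares over all tested genes were 6.48% higher and 7.16% lower. Lyz1 is nearly identical to Lyz2, so its 34 and 16 UMIs are uncertain. In glycolysis and hypoxia, 5 of 25 were higher (Pgk1, Slc2a1, P4ha1, Slc16a3, Pfkp) and 1 lower (Hk2), with a median log2 ratio of 0.23. Pgk1, phosphoglycerate kinase, was at 45.6 and 92.9 CPM, with a ratio of 2.03 (1.58 to 2.64). The intervals of Slc2a1, from 17 and 43 UMIs, and P4ha1, from 22 and 49, reached below 1. Without the cells with 3 or more UMIs of Spp1 and Dmkn, 3 of 22 tested genes of the list were higher and 2 lower. Of 52 nuclear genes of oxidative phosphorylation, 0 were past 1.5-fold either way, with a median of 0.12.

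Transcripts of immediate early genes and of NF-kappaB feedback had medians below that of all genes. Of 22 tested in the first list, 5 were at least 1.5-fold lower (Dusp2, Klf4, Fosb, Jund, Rhob), against 7.16% of all tested genes. The median of the list was -0.24. Klf4, a transcription factor of monocyte maturation, was at 90.2 and 57.7 CPM, with a ratio of 0.640 (0.510 to 0.803), and Jund, an AP-1 subunit, at 0.637 (0.553 to 0.733), but at 0.812 with cells thinned to 1500 UMIs. Without the cells with 3 or more UMIs of Spp1 and Dmkn, 2 of 20 were lower. In the NF-kappaB list, 3 of 17 were lower (Nfkb1, Nfkbid, Nfkbiz) and 1 higher (Clec4e), with a median of -0.15. The sum of the NF-kappaB list did not follow its gene median, at 1189 CPM in young and 1255 CPM in aged members. Its median share of UMIs per cell was 0.107% and 0.118% unthinned, and 0.133% in both libraries at 1500 UMIs. The immediate early list summed to 5345 and 4977 CPM. Nfkb1 was at 84.7 and 51.2 CPM, with a ratio of 0.605 (0.476 to 0.767), and Nfkbiz at 44.0 and 20.3 CPM, with a ratio of 0.460 (0.319 to 0.660). Il1b was at 101 and 133 CPM, with a ratio of 1.32 (1.10 to 1.58), below the 1.5-fold bound.

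MHC class II genes showed how few cells can carry a sum. Of 7 tested, 1 was lower (H2-Aa, at 0.597 from 106 and 91 UMIs) and 0 higher, with a median of -0.51. A single young cell held 48.1% of the H2-Aa and 58.4% of the Cd74 UMIs. Without cells with 10 or more UMIs of Cd74, H2-Aa, H2-Ab1 and H2-Eb1, which were 3 young and 5 aged members, the median was -0.15 and none was past 1.5-fold. The list also holds Ctss, the protease cathepsin S, which took most of its UMIs and stood at 1610 and 1922 CPM, with a ratio of 1.19 (1.14 to 1.25). Globin transcripts behaved alike: 1 aged cell held 87.4% of the Hba-a1 and 89.5% of the Hba-a2 UMIs, with ratios of 2.04 and 1.93, while the median was 1 UMI of each in young and 0 in aged members.

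**Figure D5:**
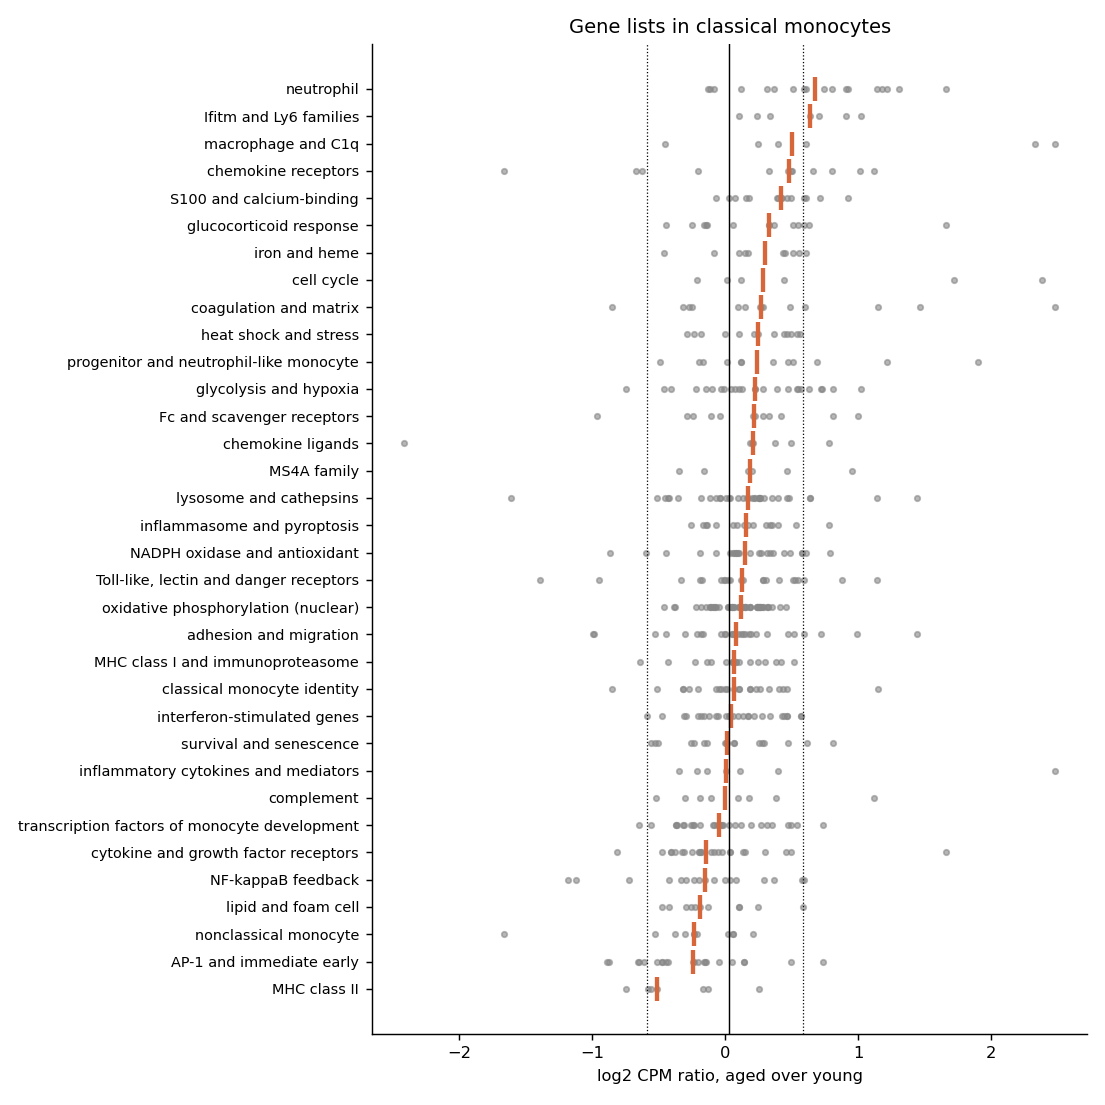
Log2 ratio of aged over young CPM (x) for each tested gene (grey points) of the gene lists with at least 6 tested genes, ordered by the list median (orange bar). The solid line is the median of all tested genes and the dotted lines mark 1.5-fold. The neutrophil list and the list of Ifitm and Ly6 families have their medians beyond the upper dotted line, and the MHC class II list has the lowest median.

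Of the other lists, S100 and calcium-binding genes had 4 of 15 higher (S100a8, S100a9, S100a10, Anxa1) and 0 lower. For this and the next lists, the shares over all tested genes were 6.48% higher and 7.16% lower. S100a10, a partner of annexin A2, was at 1029 and 1686 CPM, with a ratio of 1.64 (1.55 to 1.73), against 0.951 in neutrophils. In the glucocorticoid response list, 3 of 14 were higher (Il1r2, Tsc22d3, Anxa1) and 0 lower. Tsc22d3, a glucocorticoid-induced leucine zipper protein, was at 1.54 (1.33 to 1.79) and Anxa1, annexin A1, at 1.51 (1.40 to 1.63), both near the bound. In coagulation and matrix, 4 of 14 were higher (Thbs1, Ecm1, Spp1, Serpinb1a) and 1 lower (Fn1). Ecm1, extracellular matrix protein 1, was at 32.4 and 89.4 CPM, with a ratio of 2.76 (2.06 to 3.73), and at 4.19 in neutrophils. Toll-like, lectin and danger receptors had 3 of 22 higher and 2 lower, among them Clec12a, an inhibitory lectin receptor, at 0.519 (0.412 to 0.654). The 18 tested MHC class I genes had 0 higher and 1 lower (H2-T22, at 0.640). Ribosomal protein genes took 26.5% of young and 23.2% of aged member UMIs. Markers of B cells, T cells, platelets, and mast cells and basophils summed to at most 22.5 CPM in members of either library, with Ms4a1, Cd28 and Cd4 at 0 in both.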

How the data were processed

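The authors deposited 1 table of raw UMI counts per gene and cell with a population label and the library of each cell. Cell Ranger 2.1.1 and build mm10 come from the submitters' processing notes. How the authors filtered cells and genes is not given in the sources used here. With python 3.11.15, pandas 2.3.3 and scipy 1.17.1, UMIs were summed over the member cells of each library and expressed as CPM of the summed total. Sums carry exact Poisson, ratios exact conditional binomial and shares Clopper-Pearson intervals at 95%. The ratio of member to neutrophil ratio has a log-normal interval. No doublets were removed, since the automatic calls of scrublet (in scanpy 1.11.5) marked 4 young and 0 aged cells, too few to have worked. The alternative removed the 27 young and 124 aged cells with the highest scores, among them 5 and 32 members. Alternatives changed the Ly6c2 minimum, the cells left out, the minimum of UMIs, the depth, the weight of cells and the scaling (TMM from edgeR 4.0.16, median of ratios, or gene classes out of the total).

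Named are the 12 genes with the highest and lowest ratio by the interval bound nearest to 1, the rule's genes and markers, the 12 most abundant, the 12 highest over nonclassical cells, and in each of 41 lists the genes 1.5-fold apart and up to 4 others. Ribosomal protein, mitochondrial, globin, immunoglobulin, T cell receptor and sex-linked genes, pseudogenes and unnamed models (329 tested) were left out of the ranking. Members and lists were chosen with earlier results of these data known. Which of the named genes and promoters to print, and the looks at UMIs held by few cells, were chosen after values were seen. Some results are not reported here. Code was tested on simulated data.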

Additional observations from a re-analysis of the deposited data

Results flagged for a closer look

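In 12 of 3907 genes with 50 or more UMIs in members and in neutrophils, the ratio of aged over young was at least 1.5-fold up in one kind of cell and at least 1.5-fold down in the other, with both intervals clear of 1. The difference itself was not tested, and all 12 were higher in aged members and lower in aged neutrophils. The median log2 ratio of named genes was 0.04 in members and -0.23 in neutrophils, a shift in that same direction.

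The globins Hba-a1 and Hba-a2 were at 2.04 and 1.93 in members against 0.281 and 0.259 in neutrophils, and 1 aged member cell held most of their UMIs, as described above. Genes of the proteasome were at 1.76 (Psmc5) and 1.56 (Psmd7), against 0.597 and 0.559 in neutrophils. The histone gene Hist1h2bc was at 1.67 against 0.609, and P2ry12, a receptor for ADP, at 2.18 (1.20 to 4.19) from 15 and 47 UMIs against 0.529. Dnajb9, a chaperone of the endoplasmic reticulum, was at 1.55 against 0.630. The mitochondrial ribosome gene Mrpl22 was at 1.58 against 0.497, and Ociad1 at 1.5 against 0.645. Mfsd10 was at 1.64 against 0.581, Stard5 at 1.57 against 0.549 and Manbal at 1.53 against 0.662.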

How the results depend on the processing

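No paired analysis was possible because each age has 1 library. Ratios of 112 genes were recomputed under the alternatives, giving 1789 values. Of these, 1589 were counted as within the counting interval, 191 as outside it and 9 as on the other side of 1. Only genes at least 1.5-fold apart in the main analysis could be counted in the 9. Any values of the other genes that crossed 1 are among the 1589 and 191. Those 9 were H2-Aa (1.07 with at least 1 Ly6c2 UMI, 1.64 over all monocytes), Hba-a1 (0.272 with at least 5 Ly6c2 UMIs, 0.886 over all monocytes), Hba-a2 (0.241 and 0.896), Irak2 (0.660 with cells thinned to 1500 UMIs), and, without cells with a UMI of Spp1 or Dmkn, Hbb-bt (1.08) and Txnrd1 (0.742). The cause was not tested. The thinned value of Irak2 rests on fewer UMIs than its main ratio, and no minimum of UMIs was set for these recomputed ratios.

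Genes at least 2-fold higher and lower, and 1.5-fold higher and lower, numbered 55, 97, 370 and 409. They were 166, 253, 690 and 872 from 20 UMIs, and 17, 30, 90 and 86 from 200 UMIs, where other numbers of genes were tested. With ribosomal, mitochondrial, pseudogene and unnamed genes out of the total, 225 were 1.5-fold higher. With cells thinned, 42 were 2-fold lower, and 236 and 123 were 1.5-fold higher and lower, of 2084 tested. Several calls near 1.5-fold were lost in some settings, among them S100a8 (1.39 with the highest doublet scores removed), Fpr1 (1.32 thinned), Clec4e (1.27) and Ptafr (0.775) without any Spp1 or Dmkn UMI, Ccrl2 (0.911), P4ha1 (1.24) and Fn1 (0.676) over all monocytes, and H2-T22 (0.840) thinned. Over all monocytes 104 and 161 were past 2-fold and 685 were 1.5-fold lower. Without cells with a UMI of Spp1 or Dmkn, 251 were 1.5-fold lower.

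Members were 34.8% of young and 30.3% of aged monocytes with at least 5 Ly6c2 UMIs, 57.6% and 49.6% with at least 1, 38.2% and 26.6% with 0 cell cycle UMIs, and 19.9% and 20.2% with cells thinned to 1500 UMIs first. Without cells with 3 or more Spp1 and Dmkn UMIs, the aged share was 22.5%. Genes per cell had medians of 718.5 and 736 at 1500 UMIs, 1151 and 1175 at 3000, and 2015.5 and 1925 unthinned. The median share of UMIs in the MHC class II list, most of them from Ctss, was 0.133% (young) and 0.200% (aged) at 1500 UMIs, and the aged value was 0.221% unthinned and 0.233% at 3000 UMIs. Settings with 0 cell cycle UMIs, without Cxcr2, Ly6g or Mmp9 cells, and without any Spp1 or Dmkn UMI were chosen after seeing the data.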

Other observations

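Further surface and secreted products differed between the libraries, given as values with no test. Ms4a6d, a membrane protein of the MS4A family, was at 196 CPM in young and 380 CPM in aged members (ratio 1.94, 1.71 to 2.19), at 1.04 in neutrophils and at 2.16 in other monocytes. Cd9, a tetraspanin, was at 1.99 (1.35 to 2.99), and Cd63, a tetraspanin of late endosomes, at 2.72 (1.42 to 5.64) from 12 and 47 UMIs, and at 5.94 with cells thinned. Thinning leaves still fewer UMIs, so thinned ratios of genes with few UMIs are loose and are given here without an interval. Mmp19 was at 1.65 (1.29 to 2.11), while the integrin chain Itga5 was at 0.502 (0.291 to 0.855) from 36 and 26 UMIs, and at 0.711 without any cell with a UMI of Spp1 or Dmkn. Ednrb, an endothelin receptor, was at 3.43 (1.95 to 6.43) from 15 and 74 UMIs, at 1.72 without cells with a UMI of Spp1 or Dmkn and at 5.28 with cells thinned to 1500 UMIs. The lysosomal protease inhibitor Cstb was at 465 and 726 CPM (ratio 1.56, 1.44 to 1.69), and at a ratio of 1.44 with cells thinned.

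Several lists had counts past 1.5-fold near the shares over all genes, 6.48% higher and 7.16% lower. The 13 tested heat shock genes had 0 either way, 16 inflammasome genes had 1 higher (Card9, at 1.72, but at 1.25 over all monocytes, and at 0.764 in neutrophils), and 24 cytokine receptors had 1 higher (Il1r2) and 1 lower (Il6st, the shared receptor chain gp130, at 0.569, and at 0.377 with cells thinned). Of 18 survival genes, 2 were higher (Bid, at 1.53 but 1.34 over all monocytes, and Lmnb1, at 1.75 but 1.13 with cells thinned), and of 11 lipid genes 1 (Plin2, a lipid droplet coat protein, at 1.5). The thinned values of Il6st and Lmnb1 rest on fewer UMIs than the main ratios and have no interval here.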
